A study of Homo sapiens with 4 samples.

Results

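The long noncoding transcripts of 10 snoRNA host genes (GAS5, SNHG1, SNHG3, SNHG5, SNHG6, SNHG7, SNHG8, SNHG12, SNHG15 and SNHG16) were described in HaCaT, a keratinocyte line that arose from human epidermis and grows without limit in culture. They were chosen by gene symbol, and all 10 had 1 entry among the 44591 genes of the files. RNA-seq had been performed on 4 biological replicates of untreated cells, kept in Dulbecco's modified Eagle medium with fetal bovine serum, and there was no treated or control group. The replicates are called biological by the study, while the labels do not say whether they were separate cultures. The paper used these libraries to rank the sirtuin genes. The total count was 73082279 in replicate 1 and 17056035 to 19745170 in replicates 2 to 4.

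A host gene of this kind is transcribed by RNA polymerase II and carries small nucleolar RNAs (snoRNAs) in its introns. After splicing, the introns are trimmed to the snoRNAs, which stay in the nucleolus: C/D box snoRNAs guide 2′-O-methylation and H/ACA box snoRNAs guide pseudouridylation of ribosomal RNA. The spliced exons leave as a noncoding transcript, which for many hosts starts with C and a run of pyrimidines (the 5′ terminal oligopyrimidine start of ribosomal protein mRNAs) and is degraded by nonsense-mediated decay when ribosomes read its short frames. The level of such a transcript thus depends on its own decay as well. The quantity measured here is the count of each host gene, and neither splicing nor decay was measured.

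The first bases of the transcripts are shown because the pyrimidine start is the family's best known shared feature. The annotated starts differ in it. RefSeq starts (GRCh38.p14) were found in the table used here for 8 of the 10 members, and each line gives 10 bases before the start and 20 bases from it, with the first 5 bases of the transcript in capitals. These starts need not be those of the annotation used for counting.
GAS5, chr1:173869026-173869055, minus strand: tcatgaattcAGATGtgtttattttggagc
SNHG1, chr11:62855866-62855895, minus strand: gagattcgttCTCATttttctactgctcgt
SNHG3, chr1:28505933-28505962, plus strand: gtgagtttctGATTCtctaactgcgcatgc
SNHG5, chr6:85678714-85678743, minus strand: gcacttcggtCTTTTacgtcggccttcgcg
SNHG7, chr9:136728165-136728194, minus strand: ccttctcgtcCTCTGcgtgcgccggaggct
SNHG8, chr4:118278752-118278781, plus strand: ctcggcctttCACATtcgggaagcgtcggg
SNHG12, chr1:28581854-28581883, minus strand: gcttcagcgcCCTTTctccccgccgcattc
SNHG16, chr17:76557754-76557783, plus strand: gggcggtctcGCGTTcttttcgaggtcggc

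The annotated transcript began with C in 5 of these 8 genes, against 14.7% of 35116 RefSeq promoters. A C followed by 4 or more pyrimidines was found at the start of SNHG5 and SNHG12, 2 of 8, against 4.07% of all promoters. The pyrimidine run was 11 bases in SNHG12 and 5 bases in SNHG5, and SNHG7 fell 1 base short with 4. Over each entry (250 bases before and 50 after the start), the E-box CACGTG, which reads the same on both strands, was present in SNHG7 alone of the 8, 122 bases before the start, and in 7.26% of all promoters. The median GC content was 62.0% in the 8 and 58.7% in all. GAS5 stood apart with 37.7%, while the other members shown had 51.7% to 75.3%. Whether its printed start is that of the counted transcript was not tested. These bases therefore do not show that GAS5 lacks a pyrimidine start.

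Each gene is given here by its level: the count per kilobase of the deposited gene length, divided by the sum of the same quantity over protein-coding genes of that library, times 1000000. This scale was used because RNA of other classes took an unequal part of the libraries. Protein-coding genes made up 31.0% of the count per kilobase in replicate 1 and 87.4% to 93.0% in replicates 2 to 4. As a check of the label, the keratinocyte keratin genes KRT14 and KRT5 had levels of 6375 to 7642 and 1920 to 5396. The epithelial regulator TP63 had 34.5 to 90.7. The other keratinocyte markers, ITGA6 and DSG3, varied more, at 113 to 1022 and 39.9 to 578. All of these but KRT14 were highest in replicate 1. The 2 immune (PTPRC and CD3E) and 2 endothelial (PECAM1 and VWF) marker genes did not reach a mean of 1. VWF had 2.36 in replicate 1 and 0.119 or less in the others. Among 4 fibroblast markers (COL1A1, COL1A2, PDGFRB and LUM) the highest single value was 8.54, of COL1A1.

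All 10 host transcripts had a mean level above 1, the limit taken as detected, compared with 36.9% of all genes (16450 of 44591) and 18.6% of the 14957 long noncoding genes. Their mean levels ranged from 33.5 for SNHG3 to 397 for GAS5, between percentiles 68.7 and 97.7 of the detected genes. The smallest of the 40 counts behind these values was 200, of SNHG12 in replicate 4, with an exact 95% Poisson interval of 173 to 230, so counting error was small beside the spread between replicates. Intervals of this kind cover counting error only.

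GAS5 (growth arrest specific 5, hg19 chromosome 1, 173833039 to 173837125, minus strand) was the highest member in 4 of 4 replicates. It is named for its accumulation in growth-arrested cells, where its spliced RNA can bind the glucocorticoid receptor. Its level was 477, 372, 519 and 220 in replicates 1 to 4 (7329, 1562, 2947 and 1035 counts) and averaged 397 ± 133 (SD, n = 4). Replicate 4 was lowest, and GAS5 still lay at percentile 95.8 or above of the detected genes in every replicate. It ranked 13 among the 2777 detected long noncoding genes by mean level.

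SNHG5 (chromosome 6, 86386725 to 86388451, minus strand), host of the U50 snoRNAs, had a level of 231, 152, 282 and 128 in replicates 1 to 4. Its mean was 198 ± 71.3 (SD, n = 4). SNHG6 (chromosome 8, 67834165 to 67837777, minus strand), host of SNORD87, had 140, 137, 212 and 98.1, with a mean of 147 ± 47.3 (SD, n = 4). In both, replicate 3 was highest and replicate 4 lowest.

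SNHG1 (chromosome 11, 62619460 to 62623360, minus strand), the U22 host gene, had a level of 248, 154, 171 and 95.2 and a mean of 167 ± 63.1 (SD, n = 4). It was highest in replicate 1, where it ranked second of the 10, and without that replicate its mean was 140 ± 39.7 (SD, n = 3). SNHG7 (chromosome 9, 139619046 to 139622636, minus strand), host of SNORA17A and SNORA17B, had 134, 62.8, 94.8 and 79.7 and a mean of 92.7 ± 30.2 (SD, n = 4). Its lowest value was in replicate 2.

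SNHG16 (chromosome 17, 74553846 to 74561430, plus strand), host of the SNORD1 snoRNAs, had a level of 106, 72.3, 58.1 and 49.3 with a mean of 71.5 ± 25.1 (SD, n = 4). SNHG8 (chromosome 4, 119199917 to 119200978, plus strand), host of SNORA24, had 96.8, 55.2, 69.2 and 46.0, a mean of 66.8 ± 22.2 (SD, n = 4). Like SNHG1 and SNHG7, both were highest in replicate 1, by 1.47 and 1.40 times the next library.

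SNHG12 (chromosome 1, 28905050 to 28908366, minus strand), host of SNORA16A, SNORA44, SNORA61 and SNORD99, had a level of 40.9, 58.0, 59.3 and 36.3, a mean of 48.6 ± 11.7 (SD, n = 4). SNHG3 (chromosome 1, 28832455 to 28837404, plus strand), host of the U17 snoRNAs, had 38.3, 40.8, 25.3 and 29.7, a mean of 33.5 ± 7.25 (SD, n = 4). SNHG3 was the lowest member in 4 of 4 replicates and had the smallest spread, 21.6% of its mean.

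**Figure D1:**
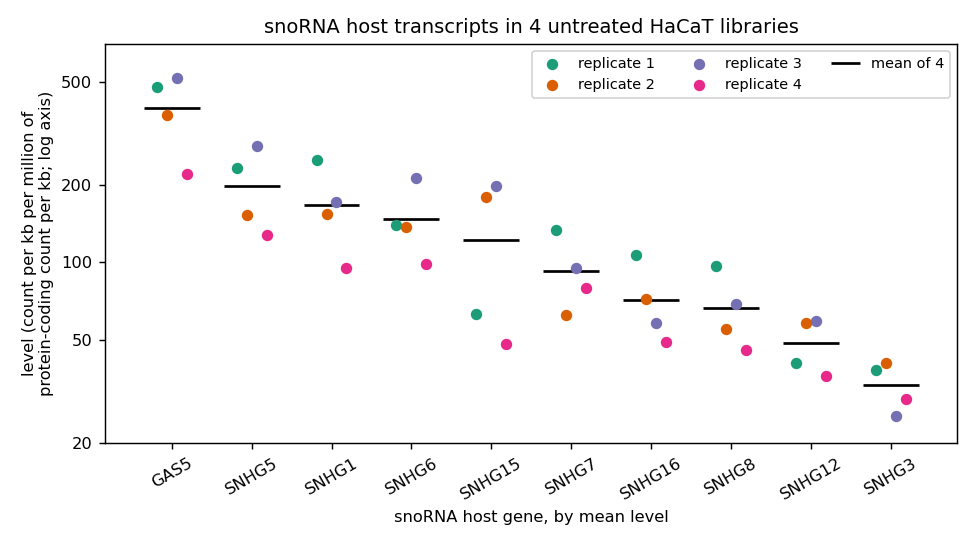
Level of each host transcript (log axis, count per kilobase per 1000000 of the protein-coding count per kilobase) in replicates 1 to 4 (points) with the mean of the 4 (black line). GAS5 is at the top and SNHG3 at the bottom in every replicate, while the points of the members between them interleave.

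SNHG15 (chromosome 7, 45022627 to 45026259, minus strand) differed most from the other members in how it varied. It hosts SNORA9, and its transcript is known as short-lived. Its level was 62.8, 180, 198 and 48.1 in replicates 1 to 4, from 1226, 959, 1427 and 288 counts. Replicates 2 and 3 were high and replicates 1 and 4 low, and the mean was 122 ± 77.5 (SD, n = 4). SNHG15 ranked 2 of the 10 in replicate 2 and 8 of the 10 in replicate 1.

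SNHG15 was the 1 member of 10 in which replicates 2 and 3 both exceeded replicates 1 and 4 by over 2-fold, which held for 1.33% of the detected genes. The pattern was described after it was seen. Centred on its own mean, the log2(level + 1) of SNHG15 lay 0.83 (root mean square over the 4 replicates) from the average of the other 9, against 0.19 for GAS5 and 0.43 for SNHG3, the next most distant. The 5 genes of 9749 with a mean level above 10 that were nearest to it by this measure were TMEM27, PLSCR1, LAP3, SLC30A1 and KLF4, at 0.11 to 0.26. PLSCR1, an interferon-inducible phospholipid scramblase, had a level of 76.1, 308, 250 and 66.1, and LAP3, a leucine aminopeptidase, had 59.2, 144, 125 and 37.8. With 4 libraries many genes share a profile, so this likeness describes these libraries only.

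Between GAS5 at the top and SNHG3 at the bottom, the order of the members was not fixed. Differences of log2(level + 1) within a replicate were taken for the 9 pairs of neighbours in the order of the means. GAS5 exceeded SNHG5 by 1.00 ± 0.22 (SD, n = 4) in 4 of 4 replicates, and SNHG12 exceeded SNHG3 by 0.52 ± 0.48 in 4 of 4. In the other 7 pairs the mean difference was smaller than its SD and the sign changed between replicates. SNHG16 and SNHG8 were closest, at 0.09 ± 0.26 (SD, n = 4), and SNHG15 and SNHG7 varied most, at 0.19 ± 1.28 (SD, n = 4). An exact permutation test (two-sided, by flipping signs) gave p = 0.125 for the GAS5 and SNHG12 pairs, the smallest p that 4 replicates allow, and 0.25 to 0.875 for the others (0.5625 to 0.875 after Benjamini-Hochberg adjustment over 9 pairs).

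The order depended on the gene length. GAS5 was also first in CPM (counts per 1000000 counted reads, without length correction) and with the union of GENCODE release 29 exons as length. SNHG7, with a deposited length of 2693 bases, moved from place 6 to place 2 in both. SNHG5, with 507 bases, moved from place 2 to place 6. SNHG3 was no longer the lowest, at place 7 in CPM and place 9 with exon unions, and SNHG12 was lowest in both. With exon unions the mean level was 111 for GAS5, 57.6 for SNHG5, 79.8 for SNHG1, 89.0 for SNHG6, 43.0 for SNHG15 and 13.4 for SNHG12, each over 1.5 times below the value given above, while that of the other 4 members moved by less than their SD.

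Most members shared the direction of their variation. Replicate 4 was the lowest library for 8 of 10 (all but SNHG3 and SNHG7), while it was lowest for 13.2% of detected genes. Replicate 3 was highest for GAS5, SNHG5, SNHG6, SNHG12 and SNHG15, 5 of 10 against 11.5% of detected genes. Replicate 1 was highest for SNHG1, SNHG7, SNHG8 and SNHG16, 4 of 10 against 40.1%, and lowest for 0 of 10 against 37.1%. These counts were chosen after the values were seen and have no test. Among replicates 2 to 4 alone, replicate 4 was lowest for 8 of 10 members and for 24.7% of detected genes.

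The median of log2(level + 1) relative to each gene's own mean was 0.32, -0.03, 0.21 and -0.50 in replicates 1 to 4 for the members. For all detected genes it was 0.04, 0.12, -0.21 and 0.09. The summed level of the 10 was 1575, 1283, 1688 and 830. It averaged 1344 ± 383 (SD, n = 4), and 1267 ± 429 (SD, n = 3) without replicate 1. The direction of replicates 2 to 4 did not depend on the scale: replicate 4 was the lowest of these 3 for 8 of 10 members also in TPM over all genes, in CPM and on the upper quartile scale. Against replicate 1 it did: in TPM over all genes, replicate 4 was the lowest of the 4 for 0 of 10 members.

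**Figure D2:**
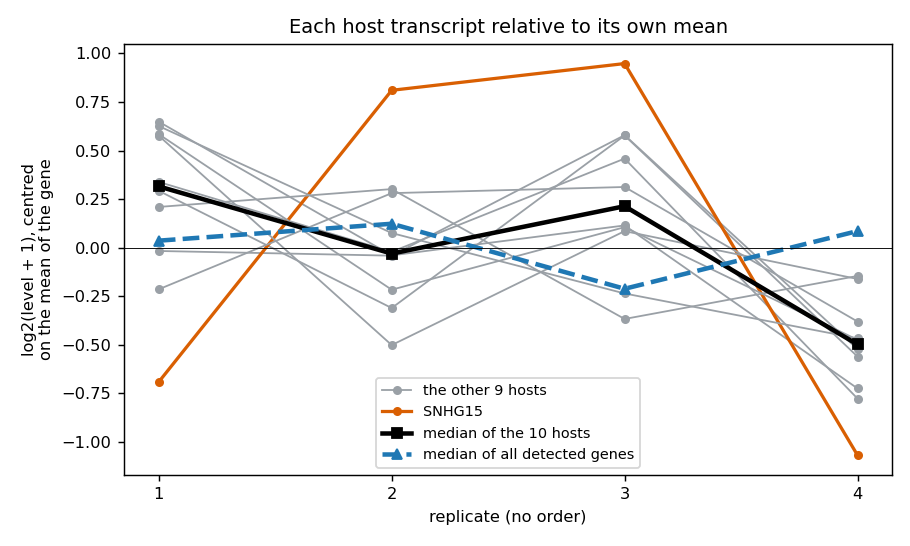
log2(level + 1) of each host transcript minus its mean over the 4 replicates, by replicate (lines only join values of 1 gene). The median of the 10 (black) is lowest in replicate 4, at -0.50, where the median of all detected genes (blue, dashed) is at 0.09, and SNHG15 (orange) is high in replicates 2 and 3.

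Outside the members, the 5 genes whose centred profile lay nearest to the members' average were TIMM17A, ZWINT, TIMM23, COMMD5 and TRAPPC2L, at a root mean square difference of 0.03 to 0.05 over 4 replicates. TIMM17A and TIMM23, both subunits of the translocase that imports proteins through the inner mitochondrial membrane, had levels of 108, 97.4, 108 and 64.0, and of 80.4, 68.6, 86.0 and 49.0. Within the family, SNHG1 and SNHG8 were the closest pair (0.16), followed by GAS5 and SNHG5 (0.19).

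Over the 4 replicates the members' median range was smaller than that of all detected genes, and among replicates 2 to 4 it was similar. The highest of the 4 values was 1.61 (SNHG3) to 4.11 (SNHG15) times the lowest, with a median of 2.16 over the 10, against 2.92 over the 16450 detected genes and 2.43 over the 12165 detected protein-coding genes. Among replicates 2 to 4 the median was 1.71 for the members, 1.77 for detected genes and 1.62 for detected protein-coding genes. Detected genes reach down to a mean level of 1, while the lowest mean of a member was 33.5. No member in replicate 1 lay over 2-fold above the highest of the other replicates, where 14.0% of detected genes did, and no member lay over 2-fold below the lowest, where 19.0% did. SNHG15 fell below by this mark when replicate 4 was left out, at 62.8 against 180 and 198.

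**Figure D3:**
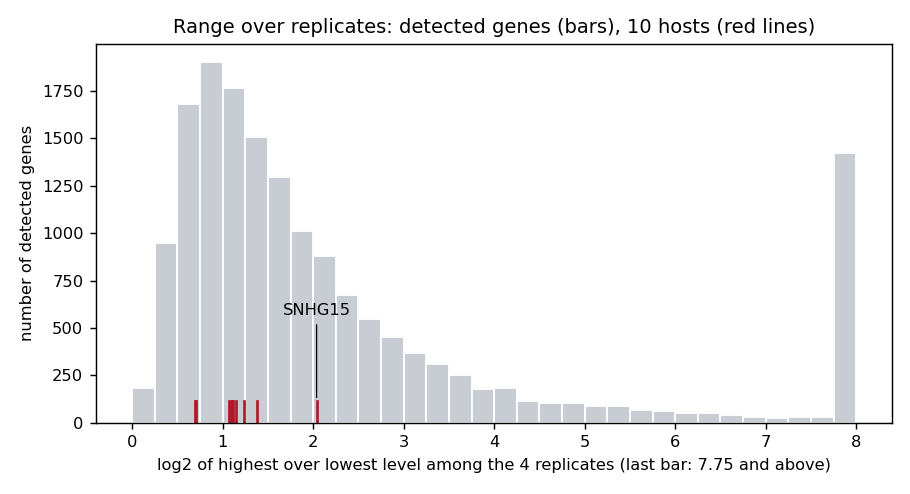
Number of detected genes (bars) by the log2 ratio of the highest to the lowest level among the 4 replicates, with the 10 host transcripts as red lines; genes with a value of 0 are in the last bar. The hosts lie between 1.61-fold and 4.11-fold, within the bulk of the genes, with SNHG15 farthest right.

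By position in the files, 35 snoRNA genes lie inside the 10 hosts on the same strand, 25 of the C/D and 10 of the H/ACA class. They were not placed in introns or exons here. Reads of a snoRNA and of a host exon that holds it can be shared by the counting. The values of a host and of its snoRNAs, and their ratios, are therefore not fully separate quantities. The snoRNA genes are described below by their own entries. The 35 genes held 113097 counts in replicate 1 and 389, 340 and 227 in replicates 2 to 4. In contrast to the hosts, 24 of the 35 were over 2-fold higher in replicate 1 than in any other replicate, while 45.2% of all 431 snoRNA genes were (2 of the 35 and 139 of the 431 had no count in any library). The library of replicate 1 stood apart in the class as a whole: all snoRNA genes took 0.425% of its counts and 0.00580% to 0.0117% of those of replicates 2 to 4. How the RNA was selected or sized is not given in the sources used here, and its part in these values was not tested.

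In replicate 1, 109246 of the 113097 counts came from the snoRNA genes of SNHG3, the host with the lowest level. SNORA73A and SNORA73B (the U17 snoRNAs, which act in cleavage of the ribosomal RNA precursor rather than in its modification) are shown in full because they carried the largest difference between a host and its snoRNAs. The counted entry of SNORA73B has 158 bases and its sequence below 204, while SNORA73A has 207 and 206. The sequences are those of the GENCODE release 29 transcripts (GRCh38), with the ACA box in capitals 3 bases from the 3′ end.
SNORA73A: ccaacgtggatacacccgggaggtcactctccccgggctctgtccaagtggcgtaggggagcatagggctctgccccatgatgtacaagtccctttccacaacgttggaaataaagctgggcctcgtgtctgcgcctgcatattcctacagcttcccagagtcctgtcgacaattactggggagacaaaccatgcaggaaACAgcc
SNORA73B: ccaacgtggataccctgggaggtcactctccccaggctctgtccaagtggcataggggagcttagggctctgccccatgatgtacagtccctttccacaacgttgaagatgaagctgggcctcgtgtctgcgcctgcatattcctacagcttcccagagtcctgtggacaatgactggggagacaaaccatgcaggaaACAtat

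SNORA73A had 48230, 46, 28 and 18 counts in replicates 1 to 4, and SNORA73B had 61016, 25, 27 and 10. Their sequences are identical in 192 of 206 aligned columns (93.2%), so reads could have been divided between them by the counting, and their sum is the safer value. That sum was 35.2% of all snoRNA counts of replicate 1 and 2.53% to 3.56% of those of the other replicates. In replicate 1 it was 5009% of the 2181 counts of SNHG3 itself. In replicates 2 to 4 the 2 snoRNAs had 11.1%, 10.3% and 5.39% of the host's count. Without them, the other 33 genes had 3851, 318, 285 and 199 counts.

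The 8 snoRNA genes inside SNHG1 (SNORD22 and SNORD25 to SNORD31) were each highest in replicate 1, with 1960 counts in all against 77, 110 and 74. SNORD31 had the highest level of them, 317, 64.1, 80.2 and 88.8 in replicates 1 to 4. SNORD22, which acts in ribosomal RNA processing, had 155, 14.3, 11.5 and 7.46. The summed snoRNA level was 4.16 times that of the SNHG1 transcript in replicate 1 and 1.02, 0.982 and 1.46 times in the others.

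The 11 snoRNA genes inside GAS5 had 826, 140, 74 and 58 counts. By level, SNORD80, SNORD74 and SNORD78 were not set apart in replicate 1. SNORD80 had 102, 123, 54.8 and 51.0, SNORD74 had 113, 100, 18.5 and 13.0, and SNORD78 had 15.2, 27.9, 12.4 and 22.4. SNORD44 was, with levels of 97.8, 27.1, 16.4 and 15.4. SNORA103 had 0 counts in all 4 libraries and SNORD75 had 2, 0, 0 and 0. Along this 1 host, the levels in replicate 1 ran from 0 (SNORA103) to 113 (SNORD74).

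In the other hosts the counts were smaller. The 4 snoRNA genes of SNHG12 had 516, 51, 61 and 44 counts, and SNORA24 in SNHG8 had 227, 3, 1 and 2. SNORA9 in SNHG15 had a level of 46.1, 33.9, 13.4 and 16.1, highest in replicate 1, where its host was low. The snoRNA genes of SNHG5, SNHG6 and SNHG16 had 65, 24 and 84 counts in replicate 1 and 12 or fewer in each other library. In SNHG7, SNORA17A had 0 counts in all libraries and SNORA17B a single count in replicate 2, while SNHG7 itself had 1124 to 8741. A count of 3 or fewer was taken as at the limit of detection.

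**Figure D4:**
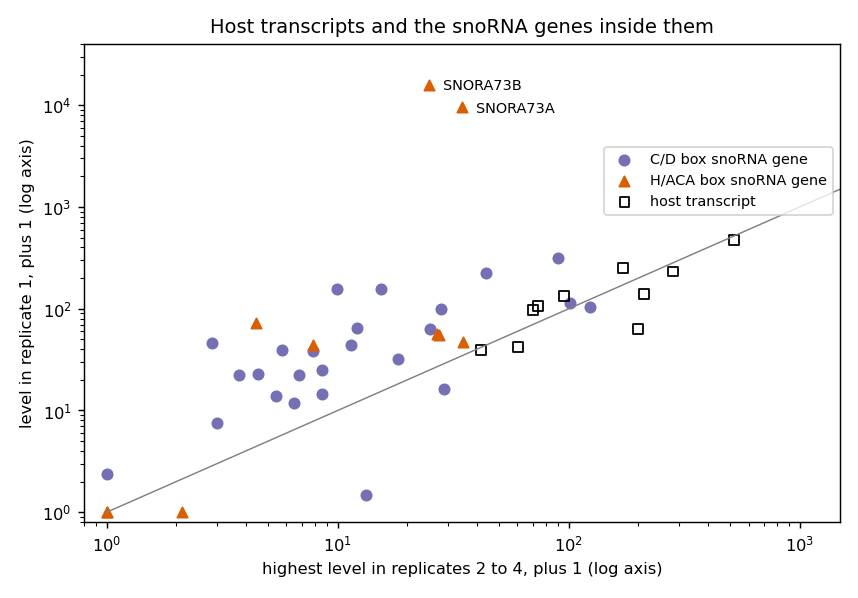
Level in replicate 1 against the highest level in replicates 2 to 4, each plus 1 on log axes, for the 10 host transcripts (squares) and the 35 snoRNA genes inside them (C/D circles, H/ACA triangles); the line marks equal values. The hosts other than SNHG15, which lies below at 62.8 against 198, are within 2-fold of the line, 29 of the 35 snoRNA genes are above it, and SNORA73A and SNORA73B are farthest above.

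Reads that fall in overlapping genes bear on SNHG3 in particular. It lies wholly within RCC1 on the same strand, the gene of the nucleotide exchange factor for the GTPase Ran, and both start at the same base. RCC1 had a level of 48.2, 149, 151 and 104, so SNHG3 stood at 0.794 of RCC1 in replicate 1 and at 0.274, 0.168 and 0.285 in replicates 2 to 4. Another such pair had unlike values among the libraries. The translation factor gene EIF4A1, which lies within the readthrough gene SENP3-EIF4A1, was listed at 0 in replicate 1 (152 counts for the readthrough), against 16830, 32148 and 15611 counts (18319, 34613 and 17157 for the readthrough) in the others. The part of the counting in the values of SNHG3 was not tested. GAS5, SNHG6, SNHG7 and SNHG12 overlap a gene on the opposite strand by 41, 119, 125 and 8 bases, and the strand setting of the counting is not given in the sources used here.

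Of 14 further noncoding hosts on a list, 13 had a mean level above 1 (SNHG14, also listed, was not analysed here). ZFAS1 was the highest and, with a mean of 347, stood below GAS5 and above the other members, while the other 12 had means of 1.22 to 70.7. ZFAS1, host of the SNORD12 snoRNAs, had levels of 402, 288, 546 and 152, the same order of replicates as GAS5. SNHG19 had levels of 131, 77.1, 29.9 and 45.1, and SNHG18 of 79.8, 12.3, 12.9 and 23.0. SNHG17 had levels of 7.04, 75.0, 51.7 and 19.8, with replicates 2 and 3 both over 2-fold above replicates 1 and 4, as in SNHG15. Replicate 4 was lowest for 4 of the 13 (SNHG9, SNHG11, ZFAS1 and EPB41L4A-AS1), beside 13.2% of detected genes. Replicate 1 was over 2-fold above all others in 2 (SNHG18 and SNHG25) and over 2-fold below in 2 (SNHG17 and SNHG20), beside 14.0% and 19.0% of detected genes. SNHG25 had 28, 3, 0 and 0 counts, so replicates 2 to 4 were at the limit of detection. MEG8 was listed at 0 throughout.

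**Figure D5:**
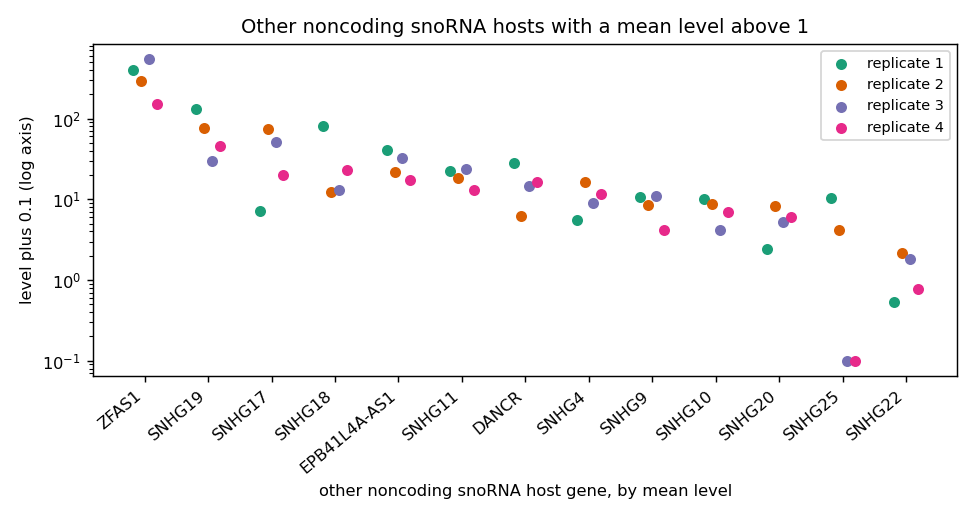
Level plus 0.1 (log axis) of the 13 other noncoding snoRNA hosts with a mean level above 1, in replicates 1 to 4. ZFAS1 is highest, at 152 to 546, and the replicates are ordered differently from gene to gene.

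Protein-coding genes with snoRNAs in their introns had a higher median than the members, though TNPO2, a nuclear import receptor gene with a mean level of 47.9, lay below all members but SNHG3. The median level was 931, 1478, 1906 and 1319 in replicates 1 to 4, over 15 genes, against 120, 105, 133 and 64.5 for the members. RPL7A, RPL23, RPL13A and HSPA8, 3 ribosomal protein genes and the constitutive heat shock cognate, were the highest, with means of 5550, 3910, 3120 and 2687. Replicate 4 was lowest for 5 of these 15, beside 13.2% of detected genes. Replicate 1, in which EIF4A1 was listed at 0, was lowest for 6, beside 37.1% of detected genes.

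Genes whose products act with the snoRNAs were also on the lists. Of the 8 core proteins of the snoRNA particles, 6 were lowest in replicate 1 and 0 highest in it, where 37.1% and 40.1% of detected genes were, with a median relative to their own mean of -0.71 in replicate 1 and 0.28, 0.43 and -0.13 in the others. NOP10 and NHP2, of the H/ACA particle, had levels of 313, 278, 367 and 206, and of 117, 245, 303 and 208. NOP56 and the methyltransferase fibrillarin (FBL), of the C/D particle, had 161, 355, 342 and 184, and 79.3, 152, 288 and 212. Of 7 assembly factors 5 were lowest in replicate 1, with RUVBL2 (154, 196, 248 and 203) and RUVBL1 (65.6, 123, 139 and 94.3) highest, followed by ZNHIT3 (34.3, 33.1, 42.2 and 24.2) and SHQ1, which was highest in replicate 1 (17.9, and 11.1 or lower in the others).

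All 10 genes of nonsense-mediated decay were detected, and 5 were lowest in replicate 1, beside 37.1% of detected genes. The helicase gene UPF1 had 34.7, 152, 120 and 134, SMG5 had 69.1, 117, 99.0 and 78.9, and UPF3A had 45.7, 31.6, 32.7 and 47.0. Replicate 4, in which most hosts were lowest, was lowest for 1 of these 10 genes, SMG8, near the 13.2% of detected genes. The part of these genes in the host levels was not tested.

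The 10 members took 0.0336% to 0.0669% of all counted reads. Of the counts of long noncoding genes they took 3.33%, 1.91%, 3.26% and 1.59% in replicates 1 to 4, which averages to 2.52% ± 0.903 (SD, n = 4). The readthrough gene SENP3-EIF4A1, whose counts are given above, is listed as lncRNA and is part of the denominator.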

How the data were processed

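The authors deposited, for each of 4 untreated HaCaT libraries, raw counts per gene, a gene length and a position, with RPKM in replicates 1 and 2 and TPM in replicates 3 and 4. Per the labels, hg19, HISAT2, HISAT, TopHat2 and Bowtie2 were named in the submitters' processing notes; the counting program, strand setting and RNA selection are not given in the sources used here. From the deposited counts and lengths, the deposited RPKM and TPM were recovered (median relative difference 1.23e-10 to 2.10e-10), and levels were set on the protein-coding TPM scale. Genes with a mean above 1 were called detected.

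With 1 group there was no test of differential expression. Neighbours in the order were compared by exact sign-flip tests of log2(level + 1), pseudocount 1, which understates differences of low genes. Exact 95% Poisson intervals were computed for the counts. The comparison of replicate 1 with the range of the others was tested on simulated counts. The members, lists and tests were chosen with earlier results of these data known. Named were all members, the snoRNA genes inside them, the 4 highest genes of each list (1 of them is not reported here), the markers and the 5 nearest profiles; the neighbours of SNHG15, the other genes given in counts and the readthrough pair were chosen after their values were seen. The lncRNA class was added to the planned noncoding classes, since the files place the members in it. Exon unions came from GENCODE release 29, matched by symbol (10 of 10 members and 29008 of all 44591 genes). Genes without a match kept their deposited length on that scale. Alternatives are given in the closing section. The tools were Biopython 1.88, matplotlib 3.10.9, SciPy 1.17.1, pandas 2.3.3, NumPy 2.4.6 and Python 3.11.15.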

Additional observations from a re-analysis of the deposited data

Results flagged for a closer look

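Dixon's 95% limit for an outlying value was applied to 58 sets of 4 values (members, their sums and shares, snoRNA genes and list medians). In 24, the highest or lowest replicate lay farther from the others than it allows. For normal values 2.9 would, but many snoRNA genes had 3 counts or fewer in replicates 2 to 4. The 24 therefore cannot be read against chance. Of the 35 snoRNA genes inside the members, 31 were examined. Genes counted almost only in replicate 1, such as SNORD27 (79, 0, 0 and 1 counts), were included. The sets are not independent, since sums and their parts were both among them. Of the 24, 21 concerned replicate 1, and 0 of the 10 host transcripts was among them.

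The value given is the gap of the outlying replicate to the next as a part of the whole range. Replicate 1 was the high library for the summed snoRNA level inside SNHG3 (0.999), SNHG1 (0.967), SNHG8 (0.963) and SNHG12 (0.872). It was high for SNORA73B (0.999), SNORA73A (0.998), SNORA24 (0.963), SNORA44 (0.913) and SNORA61 (0.832) of the H/ACA class. Inside SNHG1 it was high for SNORD27 (0.959), SNORD26 (0.954), SNORD22 (0.953), SNORD30 (0.921), SNORD25 (0.915) and SNORD31 (0.902). Inside GAS5 it was high for SNORD47 (0.873), SNORD79 (0.871), SNORD44 (0.858), SNORD76 (0.847) and SNORD81 (0.841), and inside SNHG16 for SNORD1C (0.867). Replicate 2 was high for SNORD1B (0.961, 7 counts against 1, 0 and 0) and for the sum inside SNHG7 (1.00, a single count). The median level of the nonsense-mediated decay genes was low in replicate 3 (0.883), at 21.5 against 31.3 to 32.6.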

How the results depend on the processing

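No paired comparison of conditions was possible because there is a single group, while the differences between neighbours were taken within replicates. All 10 members were detected with a limit of 0.1 or any count, in TPM over all genes and without each replicate. The summed level of 1344 was 505 in CPM, 642 with exon unions as length, 968 in TPM over all genes, 1360 on the upper quartile scale, and 1229 to 1515 with each replicate left out. In CPM 3 of 10 members kept their place in the order, with exon unions 2 of 10, and 7 to 10 without single replicates (7 without replicate 1). The members lying over 2-fold below the other replicates in replicate 1 numbered 3 in TPM over all genes (SNHG6, SNHG12 and SNHG15, where 53.5% of genes did) and 0 to 1 without single replicates (1, SNHG15, without replicate 4). The count above was 0 under each alternative tried. The share of noncoding counts, 2.52%, was 2.26% to 2.84% without single replicates, 3.83% of the lncRNA class (an alternative added after seeing the data) and 0.0505% of all counted reads.

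Of 72 recomputed differences between neighbours, 59 kept their sign. In CPM the reversed ones were SNHG5 minus SNHG1 (-0.87), SNHG6 minus SNHG15 (-0.29), SNHG15 minus SNHG7 (-1.52) and SNHG12 minus SNHG3 (-1.08). With exon unions they were SNHG5 minus SNHG1 (-0.46), SNHG1 minus SNHG6 (-0.18), SNHG15 minus SNHG7 (-1.27), SNHG16 minus SNHG8 (-0.40) and SNHG12 minus SNHG3 (-1.14). Leaving out 1 replicate reversed SNHG1 minus SNHG6 (-0.063 without replicate 1, range to 0.31), SNHG15 minus SNHG7 (-0.25 and -0.097 without replicates 2 and 3, range to 0.61) and SNHG16 minus SNHG8 (-0.0047 without replicate 2, range to 0.21). These alternatives differ from the level by the length used or by fewer samples. On other scales, added after seeing the data, replicate 4 was lowest for 8 members (upper quartile), 7 (CPM) and 0 (TPM over all genes), replicate 3 highest for 5, 5 and 8, and replicate 1 highest for 5, 4 and 0. Depth limits the snoRNA genes of replicates 2 to 4, many of them at 3 counts or fewer.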
